A study of Mus musculus with 10 samples.

Results

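Neat1 and Malat1 are long noncoding RNAs that stay in the nucleus and are transcribed from neighbouring genes. They were taken as the entries of the deposited count table whose symbol is Neat1 (ENSMUSG00000092274) or Malat1 (ENSMUSG00000092341), which gave 2 of 77175 entries. They were chosen by measured values, the Neat1 levels and the Neat1 responses to interferon gamma (IFN-γ), because these differed between the lines. For that reason all Neat1 differences, and the Malat1 differences between lines, are given as descriptions with no test. The effect of IFN-γ on Malat1 within each line and the values of other genes were tested.

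Neat1 RNA is the scaffold of paraspeckles, nuclear bodies that gather RNA-binding proteins. The gene makes a short transcript with an ordinary poly-A tail and a long one, and the long one is needed to build the paraspeckle. Malat1 is an abundant RNA of nuclear speckles, bodies that hold splicing factors. The 3′ ends of Malat1 and of long Neat1 are not made by the usual cleavage and polyadenylation. RNase P cuts upstream of a tRNA-like RNA, and the end left behind folds into a triple helix that protects it.

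The RNA was sequenced in bulk from B16-F10-OVA cells and from their parent line B16-F10, a mouse melanoma line, called OVA and WT here. The OVA cells carry a lentiviral vector in which the EF1A promoter drives ovalbumin, a model antigen, together with a Neo resistance marker. The labels do not say whether OVA is 1 clone or a pool, and no line with an empty vector was among the samples used here, so ovalbumin and any other effect of making the line cannot be told apart. The groups were OVA with IFN-γ at 50 ng/ml for 24 h (n = 3 libraries), untreated OVA (n = 2), WT with the same IFN-γ treatment (n = 3) and untreated WT (n = 2). The labels do not say that the libraries came from separate cultures, so errors and p-values measure only the spread between these samples, which may be technical.

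Total counts ran from 17728722 to 19642533 per library. Irf1, a transcription factor induced by IFN-γ, lay between 642 and 717 CPM (counts scaled to a common library total) in the treated libraries and between 10.4 and 11.1 CPM in the untreated ones. All 7 melanocyte markers were above 5 CPM and summed to between 23260 and 24470 CPM in every library. The leukocyte marker Ptprc had no counts in any library, and the summed markers of T cells, macrophages, fibroblasts and epithelial cells stayed at or below 7.68 CPM.

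The ends of these RNAs are shown because the libraries were selected with poly-T beads, so what lies at a 3′ end bears on how it could be captured. The sequences are those of the GENCODE M21 transcripts (GRCm38), 5′ to 3′, with positions counted from the first base of the transcript. Shown are bases 6592 to 6691 of the single-exon Malat1 transcript, which end where its tRNA-like RNA begins at base 6692 by RefSeq, the last 100 bases of the long Neat1 transcript, and the last 60 bases of the short one. Capitals mark the 3 stretches of at least 10 bases that the Malat1 and long Neat1 ends share, and in the short Neat1 transcript the hexamer AATAAA, a poly-A signal.
Malat1: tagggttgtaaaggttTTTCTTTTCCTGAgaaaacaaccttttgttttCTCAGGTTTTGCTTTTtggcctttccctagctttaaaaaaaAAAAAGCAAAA
Long Neat1: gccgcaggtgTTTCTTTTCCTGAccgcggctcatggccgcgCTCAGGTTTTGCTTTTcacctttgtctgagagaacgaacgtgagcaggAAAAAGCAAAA
Short Neat1: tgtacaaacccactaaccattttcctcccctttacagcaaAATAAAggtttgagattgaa

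The shared stretches were 13, 16 and 11 bases long and stood in the same order in Malat1 and in long Neat1, with AAAAAGCAAAA at the end of both windows. The annotated Malat1 transcript runs on past its window into the tRNA-like RNA, so its window is not among the ends counted next. Long Neat1, from which the shared stretches were taken, is included in each of their counts. It is the only transcript counted for the 16-base stretch. On the transcript strand, TTTCTTTTCCTGA was in the last 100 bases of 2 of 139316 annotated transcripts (0.00144%), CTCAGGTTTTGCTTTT in 1 (0.000718%) and AAAAAGCAAAA in 64 (0.0459%). AATAAA was in neither of the 100-base windows shown for Malat1 and long Neat1. In short Neat1 it lay 20 bases before the end, and it was in the last 60 bases of 38425 of 141515 transcripts (27.2%). The short transcript ended at base 3172 of the long one, so reads on the shared part cannot be given to either, and the gene count holds both. The deposited counts do not separate the isoforms.

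Neat1 was lowest in untreated OVA cells and was higher with IFN-γ in both lines. OVA cells with IFN-γ had 178, 171 and 174 CPM, against 97.8 and 98.6 CPM in untreated OVA cells. WT cells with IFN-γ had 192, 204 and 195 CPM, against 147 and 151 CPM in untreated WT cells. From highest to lowest the groups ran WT with IFN-γ, OVA with IFN-γ, untreated WT and untreated OVA. Untreated OVA cells stood furthest from the rest.

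In OVA cells the Neat1 mean with IFN-γ was 174 ± 3.41 CPM, against 98.2 ± 0.622 CPM untreated (SD, n = 3 and 2), a log2 fold change of 0.83 (SE 0.0371), or 1.77-fold. In WT cells it was 197 ± 6.70 CPM with IFN-γ, against 149 ± 2.47 CPM untreated, a log2 fold change of 0.40 (SE 0.035), or 1.32-fold. The response was thus larger in OVA cells by 0.43 on the log2 scale (SE 0.0508), a difference for which Neat1 was chosen. Between the lines, Neat1 was lower in OVA than in WT cells. The log2 difference was -0.60 (SE 0.0405) without treatment, or 0.658-fold, and -0.18 (SE 0.0307) with IFN-γ, or 0.885-fold. The distance between the lines was smaller among treated than among untreated cells, which is the same contrast as the difference of the responses. In bulk RNA, fewer cells with the RNA and less RNA per cell cannot be told apart.

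**Figure D1:**
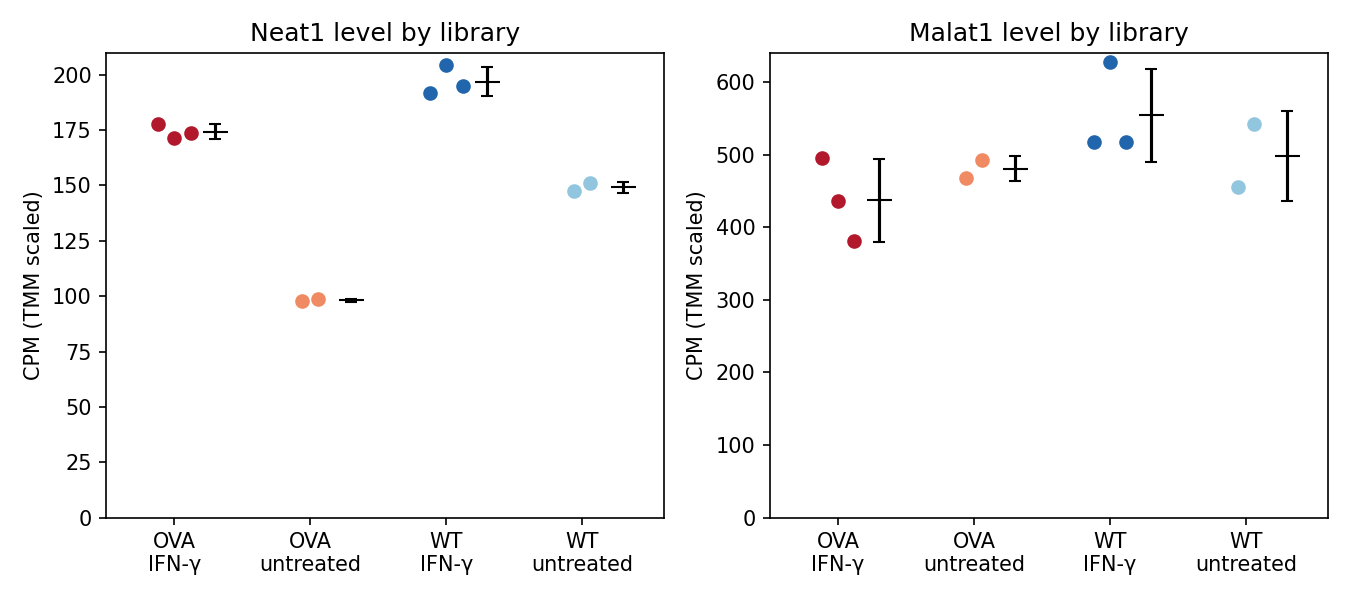
Levels of Neat1 (left) and Malat1 (right) in CPM with TMM scaling; each point is a library, black bars give the group mean ± SD, and each panel has its own axis from 0. Untreated OVA is lowest for Neat1, at 97.8 and 98.6 CPM, while treated and untreated Malat1 libraries overlap within each line.

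Neat1 was steady between libraries of a group. It was counted 1787 to 3977 times per library, and its coefficient of variation within groups was 0.634% to 3.40%, against 1.63% to 2.35% from counting error alone. Its pooled within-group SD was 0.0341 on the log2 scale, against a median of 0.0379 over the 2290 genes with at least 100 CPM on average. Of these genes, 1402 (61.2%) had a larger SD than Neat1.

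For scale, IFN-γ changed a large share of the transcriptome. At an adjusted p under 0.05, 44.2% of the 15526 tested genes were called in WT cells (24.5% higher and 19.7% lower) and 48.8% in OVA cells (25.9% higher and 22.9% lower). In OVA cells 966 of the 4017 genes called higher had a larger increase than Neat1, and in WT cells 1689 of 3803 had. Few genes were called for a different response in the lines, 0.341% of those tested (0.0773% higher and 0.264% lower in OVA minus WT), and 7 called genes exceeded Neat1 in the direction of a larger response in OVA cells. Between lines, 5.53% of genes were called without treatment (2.98% higher and 2.55% lower in OVA) and 14.4% with IFN-γ (6.36% higher and 7.99% lower), and 57 and 751 called genes were lower in OVA cells by more than Neat1 was. These counts moved with single libraries, with 350 to 378 untreated calls in place of 859 without any 1 of the 4 untreated libraries. For the difference of responses there were 21 to 23 calls in place of 53 without untreated WT library 1 or either untreated OVA library, and 107 without WT IFN-γ library 3. With IFN-γ, 2229 genes were called between lines, 1431 without WT IFN-γ library 2 and 1462 without OVA IFN-γ library 3. These ranks place Neat1 by size alone, since it was chosen for these differences.

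**Figure D2:**
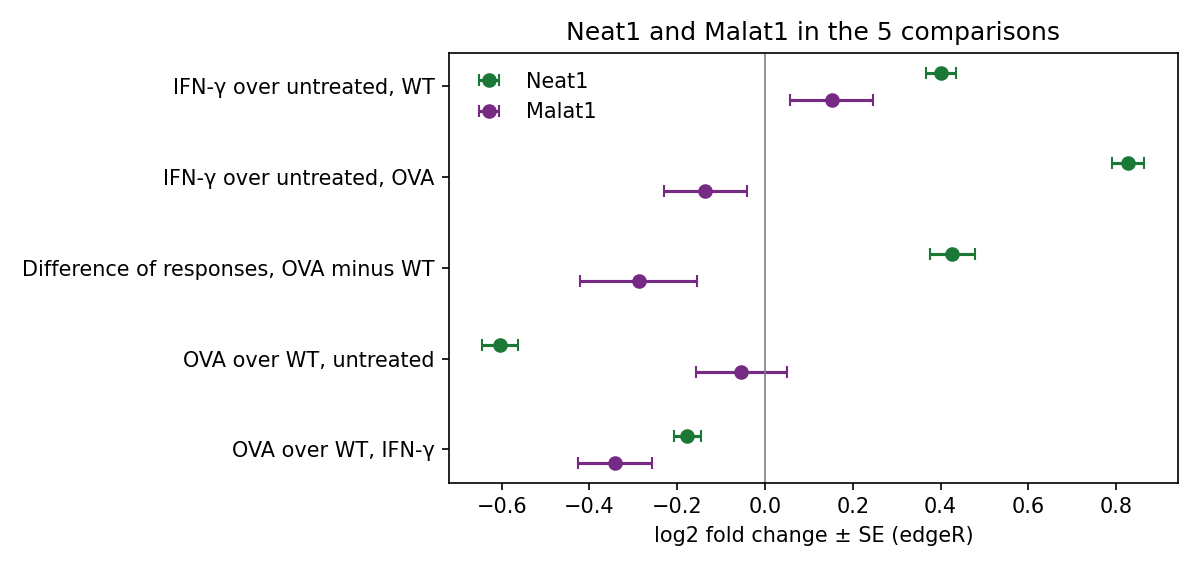
Log2 fold changes of Neat1 and Malat1 in the 5 comparisons, with bars of 1 SE from the edgeR fit; values right of 0 are higher with IFN-γ, in OVA cells, or for the larger response in OVA cells. Neat1 lies at 0.83 for IFN-γ in OVA and -0.60 for untreated OVA against WT, where Malat1 lies at -0.14 and -0.05, and Malat1 has the wider bars.

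Malat1 had more reads than Neat1 in every library and no called response to IFN-γ. OVA cells with IFN-γ had 495, 436 and 381 CPM, against 468 and 493 CPM in untreated OVA cells. WT cells with IFN-γ had 518, 628 and 517 CPM, against 455 and 543 CPM in untreated WT cells. Treated and untreated libraries overlapped in both lines, and the lowest level was in a treated OVA library and the highest in a treated WT library.

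The Malat1 mean was 437 ± 57.2 CPM in OVA cells with IFN-γ, against 481 ± 17.3 CPM untreated (SD, n = 3 and 2). By edgeR's quasi-likelihood test with Benjamini-Hochberg adjustment over all tested genes, the log2 fold change was -0.14 (SE 0.0942, adjusted p = 0.251), with a 95% interval of -0.34 to 0.06. In WT cells the mean was 554 ± 63.8 CPM with IFN-γ, against 499 ± 62.0 CPM untreated, and the log2 fold change by the same edgeR test was 0.15 (SE 0.094, adjusted p = 0.21, interval -0.05 to 0.35). Neither passed the threshold, and the intervals leave room for changes of up to 0.35 in size on the log2 scale. Both passed it without a filter on low counts. They were then -0.13 in OVA (SE 0.0343, edgeR adjusted p = 0.0019) and 0.16 in WT cells (SE 0.0343, edgeR adjusted p = 2.1e-05). These log2 values stayed near those with the filter, while their SEs were smaller. With 3 and 2 libraries, the pooled within-group SD of Malat1, 0.163 on the log2 scale, gives a larger SE than 0.0343. Both adjusted p-values without the filter thus understate the spread between the libraries. Without OVA IFN-γ library 1 the OVA value also passed the threshold, at -0.25 with an edgeR adjusted p of 0.0364. With a replicate block the WT value passed it, at 0.22 (SE 0.0719, edgeR adjusted p = 0.02). Whether the replicate numbers pair the samples was not settled.

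Between the lines, the log2 difference of Malat1 was -0.34 (SE 0.0841) with IFN-γ. Without treatment it was -0.05 (SE 0.103), and the libraries of the lines overlapped. When single libraries were left out, the untreated difference moved between -0.17 and 0.08 and so changed sign. The difference of the Malat1 responses, OVA minus WT, was -0.29 (SE 0.133), opposite in sign to that of Neat1.

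Malat1 varied between libraries of a group far more than counting error gives. It was counted 6838 to 12213 times per library, its coefficient of variation within groups was 3.6% to 13.1%, and counting error alone would give 0.973% to 1.13%. Its pooled within-group SD was 0.163 on the log2 scale, and 24 of the 2290 genes with at least 100 CPM (1.05%) had a larger one. The same libraries gave 0.0341 for Neat1.

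Set against Malat1 in the same library, Neat1 needs no scaling between libraries. Neat1 counts were 35.9%, 39.3% and 45.6% of Malat1 counts in OVA cells with IFN-γ, against 20.9% and 20.01% in untreated OVA cells. They were 37.0%, 32.6% and 37.7% in WT cells with IFN-γ, against 32.4% and 27.8% in untreated WT cells. Treated libraries lay above untreated ones in both lines, in WT cells by the narrow gap of 32.6% to 32.4%. The ratio shows that the RNAs changed unequally and not which of them changed.

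**Figure D3:**
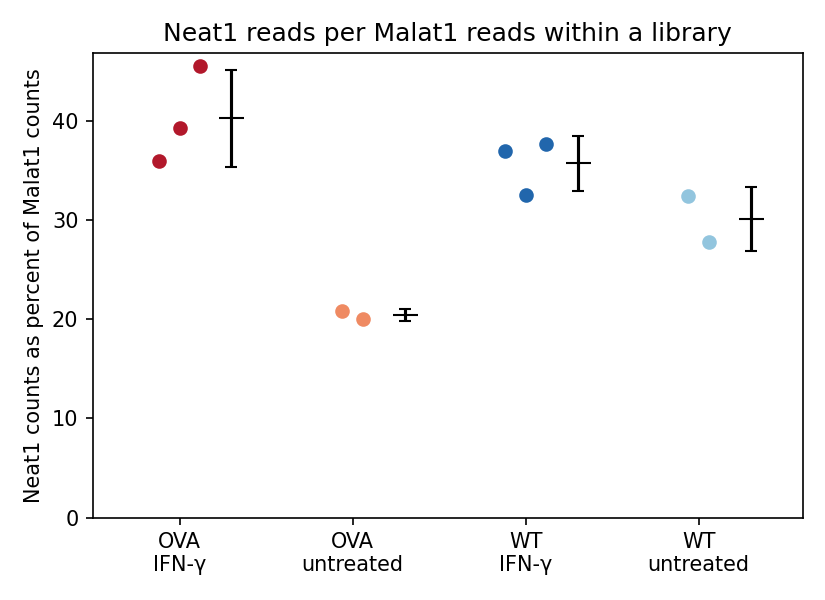
Neat1 counts as a percent of Malat1 counts within each library; each point is a library and black bars give the group mean ± SD. Untreated OVA cells average 20.4%, below the other groups, which average 40.3% (OVA with IFN-γ), 35.7% (WT with IFN-γ) and 30.1% (untreated WT).

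Per length, the group means of Malat1 stood above those of Neat1 with the long and the short Neat1 transcript. The distance depended on which of them the reads came from. Divided by the 6983 bases of its transcript, the Malat1 level was 62.6 CPM per kb in OVA cells with IFN-γ, 68.8 in untreated OVA, 79.4 in WT with IFN-γ and 71.5 in untreated WT. Divided by the 20771 bases of the long transcript, the Neat1 level was 8.39, 4.73, 9.48 and 7.18 CPM per kb in the same order of groups. Divided by the 3004 bases of the short transcript, it was 58.0, 32.7, 65.6 and 49.7 CPM per kb. Malat1 thus exceeded Neat1 per kb by 7.47 to 14.6 times with the long length and by 1.08 to 2.11 times with the short one. These are bounds on group means for a mixture of the long and short transcripts, whose makeup the counts do not give. OVA IFN-γ library 3, with Neat1 counts at 45.6% of Malat1 counts, had Neat1 above Malat1 per kb with the short length. Neat1 also has shorter annotated transcripts, of 1030 and 711 bases, which were not used here and would raise its level per kb.

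Among the genes of paraspeckle proteins, more fell than rose with IFN-γ in OVA cells. Of 35 tested members of 36 listed, 7 rose and 17 fell in OVA cells, which is 68.6% called against 48.8% of all genes, and their median log2 fold change was -0.07 against 0.00 over all genes. In WT cells 5 rose and 9 fell, 40.0% called against 44.2% of all genes, with a median of -0.06 against 0.01. None was called for a different response in the lines, where 0.341% of all genes were, and 1 was called lower without WT IFN-γ library 3. The counts moved with single libraries. In OVA cells 10 fell without untreated library 2, and 3 rose without untreated library 1 or without IFN-γ library 3. In WT cells 3 rose without either untreated library or without IFN-γ library 3, and with library totals as the only scaling 4 rose and 14 fell.

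Among the core proteins that bind Neat1, Sfpq, which is needed for paraspeckles, fell with IFN-γ in both lines. It averaged 362.5 ± 2.42 CPM in OVA cells with IFN-γ, against 448 ± 2.80 CPM untreated, and 374.5 ± 2.06 CPM in WT cells with IFN-γ, against 434 ± 4.36 CPM untreated. By edgeR's quasi-likelihood test its log2 fold change was -0.31 in OVA (SE 0.0263, adjusted p = 4.17e-08) and -0.21 in WT cells (SE 0.0263, adjusted p = 4.17e-06). Nono, the usual partner of Sfpq, had log2 fold changes of -0.09 in OVA (edgeR adjusted p = 0.0427) and -0.01 in WT cells (edgeR adjusted p = 0.84). The OVA call of Nono was lost under 7 of the alternatives, with an adjusted p of up to 0.216 without untreated OVA library 2. Pspc1, the third protein of that family, had -0.01 in OVA (edgeR adjusted p = 0.825) and 0.14 in WT cells (edgeR adjusted p = 0.0146), and its WT call was lost with DESeq2 (adjusted p = 0.118), without untreated WT library 1 (adjusted p = 0.125) or IFN-γ library 3 (adjusted p = 0.0554).

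Rbm14, which joins paraspeckle parts together, showed one of the larger decreases of the list. It averaged 62.1 ± 1.33 CPM in OVA cells with IFN-γ, against 89.0 ± 5.37 CPM untreated, a log2 fold change of -0.52 (SE 0.053, edgeR adjusted p = 3.75e-07). In WT cells it averaged 67.7 ± 4.68 CPM with IFN-γ, against 85.4 ± 0.619 CPM untreated, a log2 fold change of -0.33 (SE 0.0526, edgeR adjusted p = 5.87e-05). Tardbp, an RNA-binding protein that also enters paraspeckles, fell by 0.23 in OVA and by 0.20 in WT cells on the log2 scale. Ahdc1 fell by 0.44 and by 0.32, and Rbm12 fell by 0.25 and by 0.37 in OVA and WT cells. Rbm7, a subunit of a complex that hands nuclear RNA to the exosome, rose in both lines. It averaged 77.1 ± 4.27 CPM in OVA cells with IFN-γ, against 55.7 ± 1.07 CPM untreated (log2 fold change 0.47, edgeR adjusted p = 1.07e-06), and 69.3 ± 3.17 CPM in WT cells with IFN-γ, against 49.8 ± 0.745 CPM untreated (0.48, edgeR adjusted p = 1.33e-06). These 5 genes were called in both lines under every alternative tried.

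Between the lines, where Neat1 was lowest in untreated OVA cells, few paraspeckle genes were called. Untreated, 1 was higher (Toe1) and 2 were lower (Zc3h6 and Cirbp) in OVA than in WT cells, 8.57% called against 5.53% of all genes. With IFN-γ, 2 were higher (Toe1 and Rbm7) and none lower, 5.71% against 14.4%. The untreated median was 0.03 against 0.01 over all genes, and Sfpq differed by 0.05 (SE 0.0288, edgeR adjusted p = 0.43). All these calls were lost without some single library, and the counts with a library left out ran from 0 to 3.

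**Figure D4:**
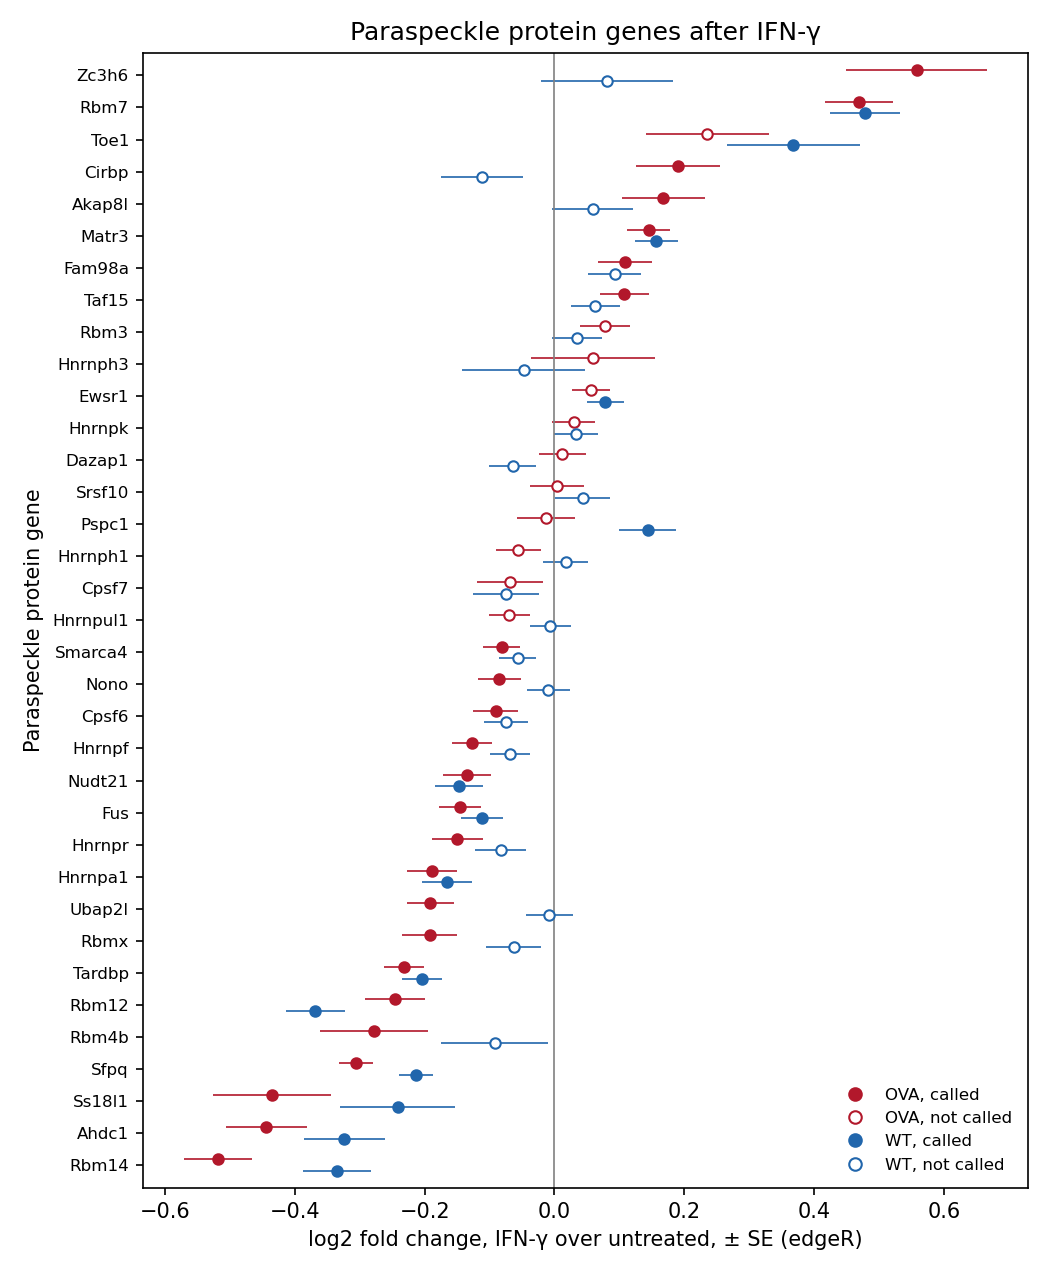
Log2 fold changes with IFN-γ of the 35 tested paraspeckle protein genes in OVA and WT cells, with bars of 1 SE; filled points were called at an adjusted p under 0.05 and open points were not. Changes were small in both directions, with Rbm14 at -0.52 in OVA and -0.33 in WT cells and Rbm7 at 0.47 and 0.48.

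The proteins of nuclear speckles, where Malat1 resides, moved in both directions with IFN-γ. Of 34 tested, 4 rose and 13 fell in OVA cells, 50.0% called against 48.8% of all genes, and 7 rose and 8 fell in WT cells, 44.1% against 44.2%. Their medians were -0.04 in OVA and 0.01 in WT cells, against 0.00 and 0.01 over all genes. In OVA cells 8 fell without untreated library 2. In WT cells 2 fell without untreated library 1, 3 without untreated library 2 and 5 without IFN-γ library 2, and library totals alone gave 5 higher and 11 lower.

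The kinases Clk1 and Clk4, which phosphorylate splicing factors, rose in both lines. Clk1 averaged 99.0 ± 3.00 CPM in OVA cells with IFN-γ, against 72.3 ± 0.184 CPM untreated (log2 fold change 0.45, edgeR adjusted p = 4.29e-08), and 91.5 ± 1.22 CPM in WT cells with IFN-γ, against 75.3 ± 1.43 CPM untreated (0.28, edgeR adjusted p = 1.54e-05). Clk4 had log2 fold changes of 0.59 in OVA and 0.40 in WT cells. Among the splicing factors, Tra2a rose by 0.33 in OVA and by 0.32 in WT cells, while Srsf9 fell by 0.28 and by 0.30, and Srsf1 fell by 0.21 and by 0.12. Srrm2, a scaffold of speckles, fell by 0.16 in OVA cells and had 0.01 in WT cells (edgeR adjusted p = 0.89), and the difference of these responses was not called (adjusted p = 0.282). Each of these calls held under every alternative tried.

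Factors that make, modify or degrade the ends of these RNAs were called for a response to IFN-γ no more often than genes in general. Of 25 tested of 26 listed, 8 rose and 3 fell in OVA cells, 44.0% called against 48.8% of all genes, and 7 rose and 2 fell in WT cells, 36% against 44.2%. The medians were 0.06 and 0.09. In OVA cells 3 rose without untreated library 1 and 1 fell without untreated library 2. In WT cells 1 fell without either untreated library, and library totals alone gave 6 higher and 4 lower. Between untreated lines 1 was higher and 1 lower in OVA cells, 8% called against 5.53% of all genes. Between treated lines 3 were higher and 2 lower, 20% against 14.4%, and library totals alone gave 7 higher and 1 lower. Xrn2, a nuclear exonuclease, rose by 0.32 in OVA and by 0.30 in WT cells. Mtrex, the helicase that feeds RNA to the nuclear exosome, rose by 0.29 and by 0.18. Rpp38, a protein subunit of RNase P, averaged 10.4 ± 0.792 CPM in OVA cells with IFN-γ, against 6.85 ± 0.215 CPM untreated (log2 fold change 0.60, edgeR adjusted p = 0.000375). In WT cells Rpp38 had a log2 fold change of 0.25 (edgeR adjusted p = 0.0991), and the difference of the responses was not called (adjusted p = 0.469).

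Transcription factors named in the literature as regulators of Neat1 or Malat1 included genes of the IFN-γ pathway itself, such as Irf1. Of 24 tested, 10 rose and 8 fell in OVA cells and 11 rose and 7 fell in WT cells, 75.0% called in each line against 48.8% and 44.2% of all genes. Irf1 averaged 659.5 ± 20.9 CPM in OVA cells with IFN-γ, against 10.35 ± 0.0997 CPM untreated, and 700.4 ± 22.6 CPM in WT cells with IFN-γ, against 10.7 ± 0.519 CPM untreated. Stat3 rose by 2.89 in OVA and by 2.79 in WT cells on the log2 scale. Epas1, which encodes the hypoxia factor HIF-2α, fell by 1.20 and by 1.04. None of the 24 was called for a different response in the lines by edgeR, where 0.341% of all genes were, and 1 was called lower by DESeq2 or without WT IFN-γ library 3. Irf1 differed by -0.04 (SE 0.0979, edgeR adjusted p = 0.93).

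Neat1 is a known target of p53 in mouse cells and of HIF-2α in human cells, and genes of both pathways differed between the lines. Both gene lists were drawn up with earlier results of these data known, so their shares called between lines are descriptions. Of 18 tested p53 targets, 12 were higher and none lower in untreated OVA than in untreated WT cells, 66.7% called against 5.53% of all genes, with a median of 0.40. Cdkn1a, an inhibitor of the cell cycle, averaged 149.8 ± 3.30 CPM in untreated OVA, against 74.1 ± 0.656 CPM in untreated WT cells. Of 17 tested genes induced in hypoxia, none was higher and 13 were lower in untreated OVA cells, 76.5% called, with a median of -0.39. Ero1a, an oxidase of the endoplasmic reticulum, averaged 253 ± 2.42 CPM in untreated OVA, against 422 ± 9.10 CPM in untreated WT cells. With IFN-γ, 14 p53 targets were higher (77.8% called) and 15 hypoxia genes lower (88.2%) in OVA than in WT cells, against 14.4% called of all genes. In response to IFN-γ, 3 p53 targets rose and 5 fell in OVA cells (44.4% called against 48.8% of all genes) and 3 rose and 6 fell in WT cells (50.0% against 44.2%), shares near those of all genes. Of the hypoxia genes, 2 rose and 13 fell in OVA cells (88.2% called) and 2 rose and 11 fell in WT cells (76.5%). The part of either pathway in the Neat1 level was not tested.

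Other long noncoding RNAs did not follow one direction. Of 31 tested of 43 listed, 9 rose and 4 fell with IFN-γ in each line, 41.9% called against 48.8% of all genes in OVA and 44.2% in WT cells, with medians of 0.07 in OVA and 0.115 in WT cells. In OVA cells 1 fell without untreated library 1 and 2 without untreated library 2. In WT cells 3 rose and 2 fell without untreated library 1, none fell without untreated library 2, 4 rose without IFN-γ library 2, and library totals alone gave 6 higher and 5 lower. Mir22hg, the host of a microRNA, averaged 10.0 ± 1.16 CPM in OVA cells with IFN-γ, against 5.71 ± 1.05 CPM untreated (log2 fold change 0.81, edgeR adjusted p = 5.71e-05), and 8.43 ± 0.13 CPM in WT cells with IFN-γ, against 5.63 ± 0.296 CPM untreated (0.58, edgeR adjusted p = 0.0018). Gas5, a host of small nucleolar RNAs, rose by 0.27 in OVA and by 0.23 in WT cells. Kcnq1ot1, an imprinted RNA that silences neighbouring genes, fell by 0.66 in OVA cells (SE 0.139, edgeR adjusted p = 0.00085) and had -0.32 in WT cells (SE 0.133, edgeR adjusted p = 0.065). The difference of these responses was not called (edgeR adjusted p = 0.565). Snhg15, another host of small nucleolar RNAs, was higher in OVA than in WT cells with IFN-γ, at 27.0 ± 0.118 CPM against 19.5 ± 1.5 CPM (log2 difference 0.47, edgeR adjusted p = 7.88e-05).

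Malat1 and Neat1 lie side by side on mouse chromosome 19, both on the minus strand, with Frmd8 next to Neat1. An antisense entry inside Malat1, Gm37376, had no counts in any library, and the library kit is not stated to keep strand. Of 14 tested neighbours of 16 listed, 3 rose and 7 fell with IFN-γ in OVA cells, 71.4% called against 48.8% of all genes, and 3 rose and 3 fell in WT cells, 42.9% against 44.2%. In OVA cells 4 fell without untreated library 2 and 3 fell without IFN-γ library 2, and 1 rose without untreated library 1. DESeq2 gave 3 lower neighbours in OVA cells, and library totals alone gave 3 higher and 5 lower in WT cells.

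Frmd8, whose gene lies directly beside Neat1, had small changes. It averaged 61.6 ± 1.46 CPM in OVA cells with IFN-γ, against 67.7 ± 2.66 CPM untreated, a log2 fold change of -0.14 (SE 0.0471, edgeR adjusted p = 0.0238). That call was lost under 4 alternatives, among them without untreated OVA library 2 (adjusted p = 0.245) or OVA IFN-γ library 2 (adjusted p = 0.0598). In WT cells Frmd8 averaged 55.0 ± 1.13 CPM with IFN-γ, against 58.5 ± 3.53 CPM untreated (-0.09, edgeR adjusted p = 0.156). Frmd8 thus had values on the opposite side of 0 from Neat1 in both lines. Between untreated lines Frmd8 had a log2 difference of 0.21 (edgeR adjusted p = 0.0234), where Neat1 had -0.60, and this call was lost with DESeq2 (adjusted p = 0.0742) and without untreated WT library 2 (adjusted p = 0.255), untreated OVA library 1 (0.0517) or untreated OVA library 2 (0.223).

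Further away from Neat1, Capn1, a calcium-dependent protease, averaged 25.3 ± 0.0317 CPM in OVA cells with IFN-γ, against 8.80 ± 0.383 CPM untreated (log2 fold change 1.52, edgeR adjusted p = 1.75e-11). In WT cells it averaged 24.8 ± 0.921 CPM with IFN-γ, against 9.05 ± 0.250 CPM untreated (1.45, edgeR adjusted p = 3.69e-11). Ltbp3, which binds latent TGF-β, fell by 0.47 in OVA and by 0.51 in WT cells, and Sipa1 fell by 0.46 in each. These calls of Capn1, Ltbp3 and Sipa1 held under every alternative tried.

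**Figure D5:**
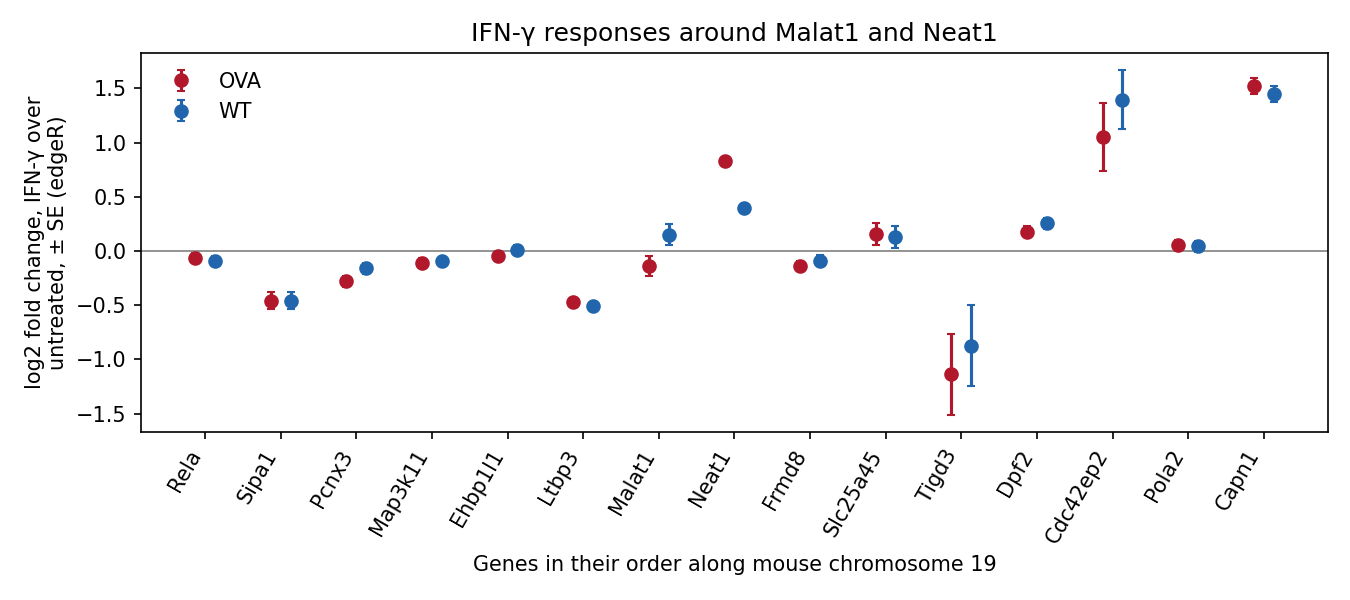
Log2 fold changes with IFN-γ of genes around Malat1 and Neat1, in their order along chromosome 19 and not to scale, with bars of 1 SE, for OVA and WT cells. Neat1 stands at 0.83 in OVA and 0.40 in WT cells, and its neighbours lie at -0.14 and 0.15 (Malat1) and at -0.14 and -0.09 (Frmd8) in OVA and WT cells.

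The genes whose levels followed Neat1 most closely were found by Pearson's r over the 10 libraries among 10357 genes with a symbol and a mean of at least 5 CPM. The libraries share 4 groups, so r reflects mostly the group means. The highest were Phyhd1 (r = 0.991), St6galnac4 (0.981), Dclk2 (0.977), Acbd6 (0.977), Ppargc1a (0.974) and Trib3 (0.971). Phyhd1 averaged 6.11 CPM in OVA cells with IFN-γ, 2.26 CPM in untreated OVA, 6.99 CPM in WT with IFN-γ and 4.44 CPM in untreated WT. Ppargc1a, a coactivator of mitochondrial genes, averaged 173 CPM in OVA cells with IFN-γ, 122 CPM in untreated OVA, 206 CPM in WT with IFN-γ and 164 CPM in untreated WT. The lowest were Midn (r = -0.987), Amotl2 (-0.983) and Ei24 (-0.981).

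For Malat1 the highest were Zfp318 (r = 0.921), Zbed6 (0.917), Cep350 (0.907), Gm17132 (0.902), Gm48216 (0.899) and Gm48132 (0.885), and the lowest were Emc6 (r = -0.911), Timm13 (-0.888) and D8Ertd738e (-0.877). Zbed6, a transcription factor gene nested in an intron, averaged 126 CPM in OVA cells with IFN-γ, 128 CPM in untreated OVA, 146 CPM in WT with IFN-γ and 138 CPM in untreated WT. Malat1 stood at rank 4797 among the genes most like Neat1, with r = 0.228. By rank correlation in place of Pearson's r, none of the 6 closest genes of either RNA was the same.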

How the data were processed

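Bulk RNA of 10 libraries in 4 groups was measured, with poly-T selection and a NEBNext Ultra kit that is not stated to keep strand, per the labels' protocols. One protocol speaks of tissue, the other labels of cell lines. The authors deposited raw read counts per Ensembl gene, made with HISAT2 2.0.5 and featureCounts 1.6.0 on GRCm39, per the submitters' processing notes. Which annotation was counted, whether strand was used and how multimapping reads were handled is not given in the sources used here. The files hold no coordinates, and the annotation used for transcripts is GENCODE M21 of GRCm38, so no genome coordinates are printed. Of 77175 entries, 39963 had no counts.

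All 10 libraries were fitted together with group means in edgeR 4.0.16 (R 4.3.3; TMM factors, filterByExpr, quasi-likelihood F test, two-sided), and p was adjusted by Benjamini-Hochberg over 15526 tested genes at a threshold of 0.05. Genes past it are called. Neat1 took part in the fit, but its p is not reported. Levels are CPM with TMM factors, with 1 exception. The marker genes and the Irf1 ranges over treated and untreated libraries are CPM of library totals. The prior count on the log scale was 2. The members and the gene lists were chosen with earlier results of these data known. Named genes are both RNAs, a part of the called list members with the largest changes, Sfpq, Nono and Pspc1, the neighbours, and the 6 most and 3 least like genes by Pearson's r. Some list members are counted but not reported here by name. Alternatives were DESeq2 1.42.0, limma-voom (limma 3.58.1), other scalings, no filter, a stricter filter, only the groups compared, a replicate block, other prior counts, rank correlation and each library left out in turn. The fit was tested on simulated data. Counting errors cover counting only.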

Additional observations from a re-analysis of the deposited data

Results flagged for a closer look

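The response to IFN-γ differed between the lines for Neat1 and for 4 of the 17 tested hypoxia genes (23.5% called, against 0.341% of all genes). For Neat1 the difference, OVA minus WT, was 0.427 on the log2 scale, and since Neat1 was picked for it no test is given. Bnip3, a mitophagy receptor, had a difference of -0.603 (edgeR adjusted p = 6.75e-05). It averaged 53.7 ± 1.04 CPM in OVA cells with IFN-γ, against 84.8 ± 0.641 CPM untreated, and 127 ± 4.33 CPM in WT cells with IFN-γ, against 132 ± 3.72 CPM untreated (SD, n = 3 treated and 2 untreated libraries each). The differences of Egln1, an oxygen sensor, P4ha2, a collagen prolyl hydroxylase, and Pdk1, an inhibitor of pyruvate oxidation, were -0.323, -0.361 and -0.296 (edgeR adjusted p = 0.022, 0.0231 and 0.0267). These calls of Egln1, P4ha2 and Pdk1 were lost in several of the fits that left out 1 library, so that 1 of the 4 genes was called without any 1 of the 4 untreated libraries, or without OVA IFN-γ library 2, and 2 without OVA IFN-γ library 1 or WT IFN-γ library 1 or 2. With library totals as the only scaling 2 were called. The hypoxia list was drawn up with earlier results of these data known. The part of these genes in the Neat1 response was not tested.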

How the results depend on the processing

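The Neat1 log2 fold changes kept their direction under all alternatives, between 0.80 and 0.84 for IFN-γ in OVA, 0.37 and 0.42 for IFN-γ in WT, 0.41 and 0.46 for OVA minus WT responses, -0.62 and -0.59 for untreated OVA against WT and -0.19 and -0.15 for treated OVA against WT. The Malat1 response passed the threshold without a filter on low counts. It was then -0.13 in OVA (SE 0.0343, edgeR adjusted p = 0.0019) and 0.16 in WT cells (SE 0.0343, edgeR adjusted p = 2.1e-05). With the filter the SEs were larger, at 0.0942 and 0.094. The pooled within-group SD of Malat1 was 0.163 on the log2 scale, so the smaller SEs understate the spread between libraries. The response ran from -0.25 to -0.055 in OVA and from 0.03 to 0.29 in WT cells with a library left out. The cause was not tested. DESeq2 called 1454 genes between treated lines in place of 2229, 552 between untreated lines in place of 859, and 103 for the difference of responses in place of 53, for which no filter gave 284. With a library left out these counts ran from 1431 to 2408, from 350 to 1012 and from 21 to 107. The counts for IFN-γ stayed between 5339 and 6896 in WT and between 5960 and 7626 in OVA cells. Whether the replicate numbers pair the samples was not settled. Pairs of libraries with the same number correlated from -0.158 to 0.261, with 5 of 13 above 0.1, and pairs with unlike numbers were not compared. A replicate block gave 165 calls for the difference of responses and 0.22 for Malat1 in WT cells (edgeR adjusted p = 0.02). Rank correlation kept 0 of the 6 genes most like Neat1 and 0 of those most like Malat1. Of 1504 recomputed list counts, 175 moved by over 1.5 times, and of 5957 recomputed values of called list members, 472 were no longer called and 0 changed sign. Only the groups compared could not be used for the difference of responses. Groups of 2 and 3 libraries limit all errors.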

Other observations

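Kcnq1ot1, singled out after its values were seen, deviated from its group mean in the same direction as Malat1 in 8 of 10 libraries, and in the opposite direction in both untreated OVA libraries. It had 25.6, 20.8 and 15.9 CPM in OVA cells with IFN-γ, against 33.5 and 32.0 CPM in untreated OVA cells, and 23.9, 31.8 and 24.3 CPM in WT cells with IFN-γ, against 31.3 and 35.2 CPM in untreated WT cells. Across the 10 libraries, the deviations of the log2 levels of Kcnq1ot1 and Malat1 from their group means had r = 0.937, given as a description over libraries that share 4 groups. Deviations within a group cancel out, so the 2 libraries of each untreated group mirror each other and the 10 values are not independent. The within-group SD of Kcnq1ot1 was 0.243 on the log2 scale, larger than that of the other listed noncoding RNAs with a mean of at least 5 CPM. Malat1 was highest in the library with 31.8 CPM of Kcnq1ot1 among treated WT cells, at 628 CPM, and lowest in the library with 15.9 CPM among treated OVA cells, at 381 CPM. What the libraries shared was not tested.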
